A study of Mus musculus with 72 samples.

Results

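Igkc and Cxcl13 are 2 of the 1224 mouse genes counted in these tumours, and they carry the B lineage signal of the targeted panels. Igkc encodes the constant region of the immunoglobulin kappa light chain, which B cells and plasma cells make. Cxcl13 encodes the chemokine that attracts B cells through the receptor CXCR5. Both genes were chosen by their symbols after their levels in these tumours were known, so their differences between treatments are given as a description, without a test. Both were on the immuno-oncology panel only, and both passed the filter on low counts that left 1038 genes for testing.

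The tumours were grown from 4T1 cells, a mouse mammary carcinoma line, injected into the thigh muscle of female BALB/c mice aged 6 to 12 weeks. Injection was on day -6, treatment on day 0 and tissue collection on day 6, with 9 mice in each of 4 groups. The BA + RT group received bintrafusp alfa (BA, also named M7824) together with radiation. The BA group received 492 μg of BA without radiation, and the RT group received radiation with an isotype control antibody. The control group received 400 μg of the isotype antibody. BA joins an antibody against PD-L1 to a trap for TGF-β. The labels and design text state no radiation dose, and no group was tumour-free, so every value describes an implanted line in a tumour-bearing host. The labels call the tissue orthotopic, whereas the series' design places the cells in the thigh. Epcam, an epithelial adhesion gene, was present in all 36 tumours at 4172 to 14437 CPM (counts scaled to a common library size with TMM factors). The muscle gene Mb was also present in all 36, at 245 to 5287 CPM.

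Naive and memory B cells carry CD20 (Ms4a1) and complement receptor 2 (Cr2) on their surface and switch off much of this programme as they become antibody-secreting plasma cells, which transcribe immunoglobulin genes at very high levels. CXCL13 is made by stromal and follicular dendritic cells in lymphoid follicles, and by some activated T cells in humans, and draws CXCR5-bearing B cells and follicular helper T cells into follicles. In tumours, aggregates of B cells with such chemokines are known as tertiary lymphoid structures.

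The Igkc amplicon lies on GRCm38 chromosome 6, from 70726666 to 70726759 on the plus strand, in the single exon of the constant region. It covers 89 coding bases, the stop codon and 2 bases beyond it. Because the constant region is shared by all kappa chains, the amplicon counts kappa transcripts whatever their variable segment, so it says nothing of clonality. The part up to the stop codon, chr6:70726666-70726757, is shown because it is the piece of the transcript behind every Igkc value, with the stop codon in capitals.
Igkc: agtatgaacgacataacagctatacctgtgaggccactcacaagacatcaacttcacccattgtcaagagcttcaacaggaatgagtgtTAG
The letters are those of the GRCm38 reference, read with the GENCODE annotation, and were not compared with BALB/c. The Cxcl13 amplicon lies on chromosome 5, from 95960550 to 95960644 on the plus strand, wholly in the 3′ untranslated part of exon 4.

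Panel 1 held 992 amplicons and 959532 to 2616197 counts per tumour, with group medians of 1898032 in BA + RT, 1362126 in BA, 1902836 in RT and 1567411 in control tumours. Counts of Igkc and Cxcl13 were low in most tumours, with group medians of 10 to 34 for Igkc and 26 to 144 for Cxcl13, so that counting error adds to the spread between mice in the lowest tumours. No 2 libraries of a group matched within counting error. 5 libraries stood apart in B cell genes, and the fold changes and correlations of Igkc and Cxcl13 below are given with and without them. They were mice 11 and 15 of the BA group, mouse 24 of the RT group and mice 1 and 3 of the control group. Their summed counts of Ms4a1, Pax5 and Cr2 were 130, 59, 173, 122 and 91 in that order, against 19 or fewer in each of the other 31 mice. The limit of 50 counts that separates them was set after the values were seen.

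Igkc was low in most tumours and very high in a few. In BA + RT tumours it ranged from 1.55 to 49.2 CPM with a median of 5.54 CPM. In BA tumours it ranged from 5.05 to 690 CPM with a median of 18.7 CPM. In RT tumours it ranged from 3.75 to 299 CPM with a median of 11.1 CPM, and in control tumours from 6.48 to 246 CPM with a median of 22.4 CPM. The highest tumours were mice 11 and 15 of the BA group, mouse 24 of the RT group and mice 1 and 3 of the control group, which are the same 5 that stood apart in B cell genes, whereas the highest BA + RT tumour was mouse 40. The ranges of all 4 groups overlapped. In whole tumours, fewer cells of a type and less RNA per cell cannot be told apart.

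Single mice set the group means of Igkc. The means were 11.2 ± 15.1 CPM in BA + RT, 148 ± 264 CPM in BA, 41.9 ± 96.5 CPM in RT and 58.9 ± 83.7 CPM in control tumours (SD, n = 9 each). The highest mouse alone held 48.6% of the group's summed Igkc in BA + RT, 51.9% in BA, 79.3% in RT and 46.4% in control tumours. With the next mouse added, these shares were 64.4%, 91.4%, 85.6% and 75.4% in the same order. The order of the groups therefore depends on the summary: BA was highest by mean and control by median, and BA + RT was lowest by both. No neighbours in either order were separated, since each pair of groups overlapped.

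Cxcl13 also varied widely between mice of the same group. In BA + RT tumours it ranged from 4.99 to 69.2 CPM with a median of 12.4 CPM, and in BA tumours from 5.47 to 72.6 CPM with a median of 30.9 CPM. In RT tumours it ranged from 9.68 to 217 CPM with a median of 34.4 CPM, and in control tumours from 15.2 to 535 CPM with a median of 114 CPM. 6 of 9 BA + RT tumours lay below the lowest control tumour, and all 9 BA + RT and all 9 BA tumours lay below the control median. In RT tumours, 7 of 9 lay below that median. The means were 21.8 ± 20.3 CPM in BA + RT, 32.6 ± 24.3 CPM in BA, 70.6 ± 77.7 CPM in RT and 125 ± 162 CPM in control tumours (SD, n = 9 each). BA + RT, BA, RT and control followed in this order from low to high by both median and mean, and neighbouring groups overlapped at each step.

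**Figure D1:**
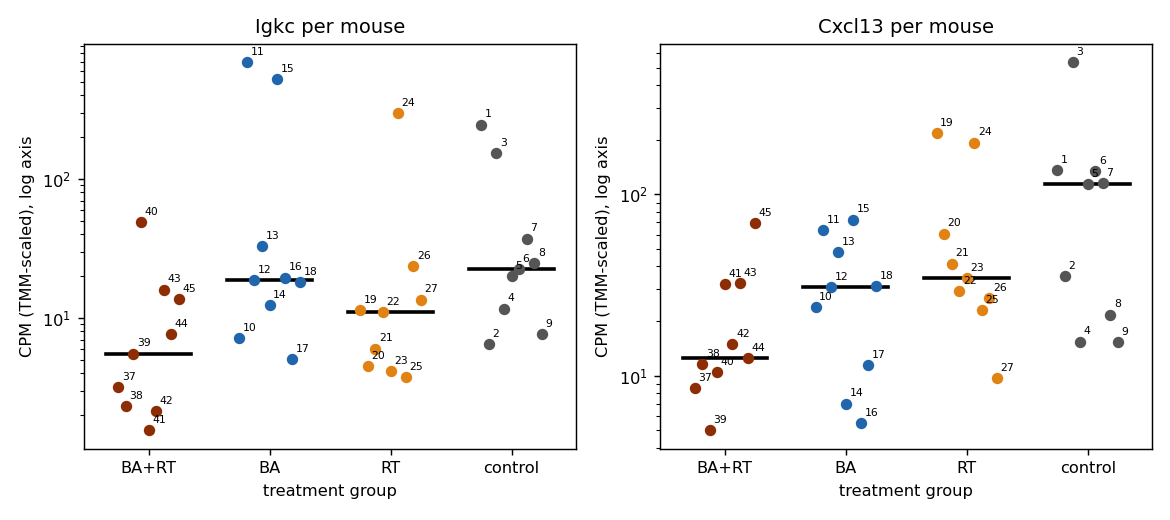
Igkc (left) and Cxcl13 (right) in each of 36 tumours, in TMM-scaled CPM on a log axis, with 9 mice per group, mouse numbers beside the points and black bars at the group medians. Igkc shows 5 tumours far above the rest, at 154 to 690 CPM, and none of them is in the BA + RT group, whose highest tumour has 49.2 CPM. Cxcl13 medians are 12.4 CPM in BA + RT and 114 CPM in control tumours, with overlapping points.

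Among all tested genes, these were among the most variable between mice of the same group. The pooled within-group SD of log2 CPM was 1.89 for Igkc, the highest of 1038 genes, and 1.39 for Cxcl13, the fifth highest. The median over all 1038 genes was 0.22. As a coefficient of variation of CPM, Igkc stood at 135% in BA + RT, 179% in BA, 231% in RT and 142% in control tumours, against medians over all genes of 15%, 12.9%, 14.4% and 17%. For Cxcl13 the coefficients were 92.9%, 74.5%, 110% and 130% in the same order. Low counts raise this measure, and the part of depth in it was not tested.

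The fold changes of the edgeR model summarise these levels, and their errors are large because of the spread. The 3 comparisons with control share the same 9 control tumours, including mice 1 and 3. In BA + RT against control tumours, the log2 fold change was -2.36 for Igkc (SE 1.06) and -2.51 for Cxcl13 (SE 0.68), in a comparison that called 47.6% of all genes at an adjusted p below 0.05. The 5.54 and 22.4 CPM medians of Igkc, in BA + RT and control tumours, differed 4.04-fold, and the 12.4 and 114 CPM medians of Cxcl13 differed 9.15-fold. Without the 5 mice that stood apart, the log2 fold change of Igkc was -0.71 and that of Cxcl13 was -1.55. Nothing is read from the share of genes called, since group differences were used to choose both genes.

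In BA against control tumours, the log2 fold change was 1.33 for Igkc (SE 0.98) and -1.94 for Cxcl13 (SE 0.67), where 27% of all genes were called. The positive Igkc value came with a lower median in BA than in control tumours, 18.7 against 22.4 CPM. It was 0.44 without BA mouse 11, 0.78 without BA mouse 15, 2.06 without control mouse 1, and -0.23 without the 5 mice that stood apart. The Cxcl13 value was -1.17 without control mouse 3 and -1.52 without those 5 mice.

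In RT against control tumours, the log2 fold change was -0.50 for Igkc (SE 0.98) and -0.82 for Cxcl13 (SE 0.64), where 41.6% of all genes were called. Both values turned on single tumours. For Igkc it was -2.59 without RT mouse 24, -0.18 without control mouse 3 and 0.23 without control mouse 1, and it was -0.93 without the 5 mice that stood apart and -1.70 by DESeq2. With reference gene factors it was -0.28. For Cxcl13 it was -1.26 without RT mouse 19 and -0.07 without control mouse 3, and it was -0.22 without those 5 mice.

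Combined treatment was also set against each treatment alone. In BA + RT against RT tumours, the log2 fold change was -1.86 for Igkc (SE 1.05) and -1.69 for Cxcl13 (SE 0.67), where 10.8% of all genes were called. The Igkc value was 0.22 without RT mouse 24, and it was again 0.22 without the 5 mice that stood apart, while that of Cxcl13 was -1.33 without them. In BA + RT against BA tumours, the log2 fold change was -3.69 for Igkc (SE 1.09) and -0.57 for Cxcl13 (SE 0.67), where 53.5% of all genes were called. Without the 5 mice, these values were -0.48 for Igkc and -0.03 for Cxcl13. The Cxcl13 value in this comparison was -1.02 without BA + RT mouse 45 and -0.33 without BA mouse 15.

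The interaction asks whether the effect of BA differed with radiation from its effect without radiation. As a log2 difference of these 2 effects, it was -3.20 for Igkc (SE 1.44) and 0.25 for Cxcl13 (SE 0.93), and 8.29% of all genes were called for it. The Igkc value was -1.11 without RT mouse 24 and 0.45 without the 5 mice that stood apart. The Cxcl13 value lay within its own SE of 0, and it was -0.51 without control mouse 3, -0.16 without BA + RT mouse 45, 0.68 without RT mouse 19 and 0.19 without the 5 mice that stood apart. Across these comparisons, the direction of Cxcl13 against control was negative for all 3 treatments in each leave-one-out fit, whereas the direction of Igkc in RT tumours changed with a single control mouse.

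**Figure D2:**
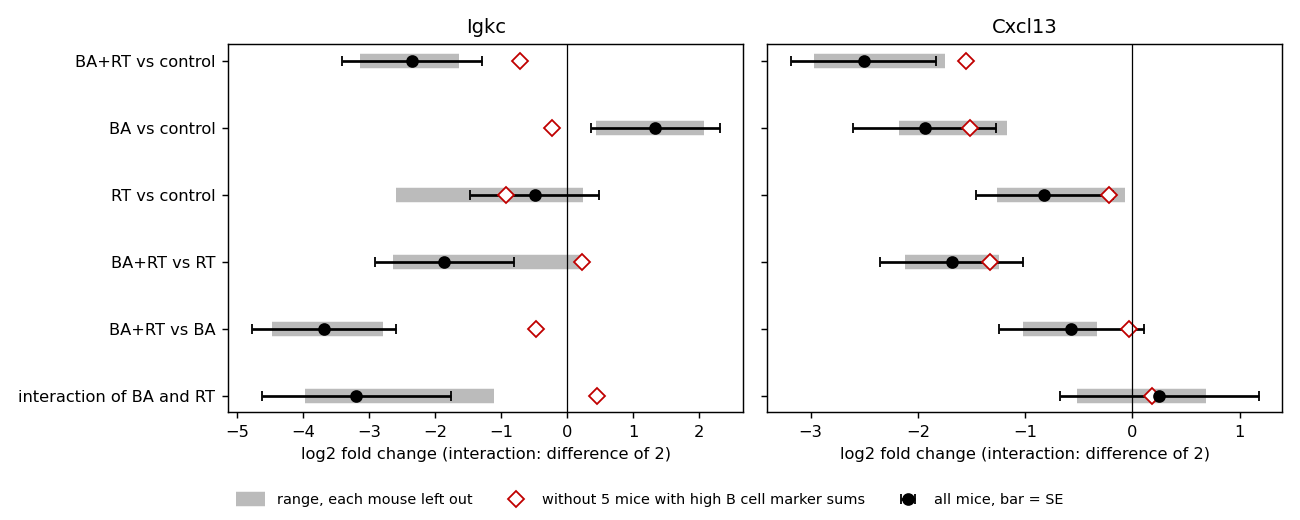
Log2 fold changes of Igkc (left) and Cxcl13 (right) in the edgeR model, with SE bars, for 5 comparisons and the interaction, which is a difference of 2 log2 fold changes. Grey bands span the values with each of the 36 mice left out, and open diamonds leave out the 5 mice with high B cell marker sums. The Igkc diamond for BA + RT against control stands at -0.71, far from -2.36 with all mice, whereas that of Cxcl13 stands at -1.55 against -2.51.

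Ms4a1, Cr2 and Pax5 were high in the same 5 tumours as Igkc. Of 20 B cell markers, 12 were on the panel and 4 passed the filter, so the others named are given as counts. Ms4a1, which encodes CD20, had 63 and 25 counts in BA mice 11 and 15, 58 in RT mouse 24, and 55 and 31 in control mice 1 and 3. The highest Ms4a1 count in any other mouse was 9. Cr2, found on B cells and follicular dendritic cells, had 44 and 29 counts in BA mice 11 and 15, 75 in RT mouse 24, and 43 and 49 in control mice 1 and 3, against 10 or fewer elsewhere. Pax5, the transcription factor that maintains B cell identity, had 23 and 5 counts in the same BA mice, 40 in the RT mouse, and 24 and 11 in the control mice, against 3 or fewer elsewhere. These 3 genes were used to single out the 5 mice. Igkc was not used, but the same 5 mice were the highest in Igkc. Leaving them out therefore also removes the highest Igkc values of the BA, RT and control groups, and none of BA + RT. Shifts of Igkc without them follow in part from that choice.

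Other B cell genes below the filter had few counts. Blk, a kinase of the B cell receptor pathway, reached 21 counts in RT mouse 24 and 10 in BA mouse 11, and Cxcr5, the receptor for CXCL13, reached 10 counts in BA mouse 11 and 9 in RT mouse 24. Cd79a, which encodes a signalling chain of the B cell receptor, had 0 to 3 counts in every tumour, including the 5 with high Igkc. Pax5 was at 0 in 6 of 9 BA + RT, 4 of 9 BA, 7 of 9 RT and 2 of 9 control tumours. Ms4a1 was at 0 in 5 of 9 BA + RT, 4 of 9 BA, 3 of 9 RT and 1 of 9 control tumours.

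The 4 B cell markers that passed the filter were tested between groups. Cd72, a B cell inhibitory receptor gene, had medians of 248 CPM in BA + RT, 165 CPM in BA, 278 CPM in RT and 118 CPM in control tumours. It rose by 1.20 (SE 0.16, adjusted p = 1.32e-07), 0.50 (SE 0.16, adjusted p = 0.0154) and 1.30 (SE 0.16, adjusted p = 3.01e-08) on the log2 scale in BA + RT, BA and RT against control tumours, by edgeR's quasi-likelihood test. Blnk, an adaptor of B cell receptor signalling, was higher in RT than in control tumours by 0.31 (SE 0.12, adjusted p = 0.0465), a call that 22 of 36 leave-one-out fits and the fits with RLE factors, total counts, no filter, DESeq2, limma and without the 5 mice lost. Cd22 and Bank1 passed in none of these 3 comparisons. So 1 of 4 rose in BA + RT, 1 of 4 in BA and 2 of 4 in RT, with none lower, and the list's median log2 fold changes were 0.43, 0.22 and 0.49 against 0.01, 0.00 and -0.01 over all genes. The background shares were 47.6%, 27% and 41.6% of all genes called in these comparisons. Within groups, r with Igkc over the 36 mice was 0.59 for Cd22, 0.24 for Bank1, 0.17 for Blnk and 0.08 for Cd72, and without the 5 mice that of Cd22 was 0.07. Cd22 had 90.0 and 81.0 CPM in BA mice 11 and 15, against 44.3 CPM or less in the other BA mice. The summed CPM of the 12 markers ranged from 331 to 565 in BA + RT, 274 to 582 in BA, 419 to 626 in RT and 188 to 491 in control tumours. These sums were mostly Cd72, Blnk, Bank1 and Cd22. Their BA + RT medians were 248, 83.6, 69.3 and 46.9 CPM, beside a median sum of 475 CPM. Ms4a1 and Pax5 had medians of 0 CPM there, so the sums do not show the level of these 2 genes.

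**Figure D3:**
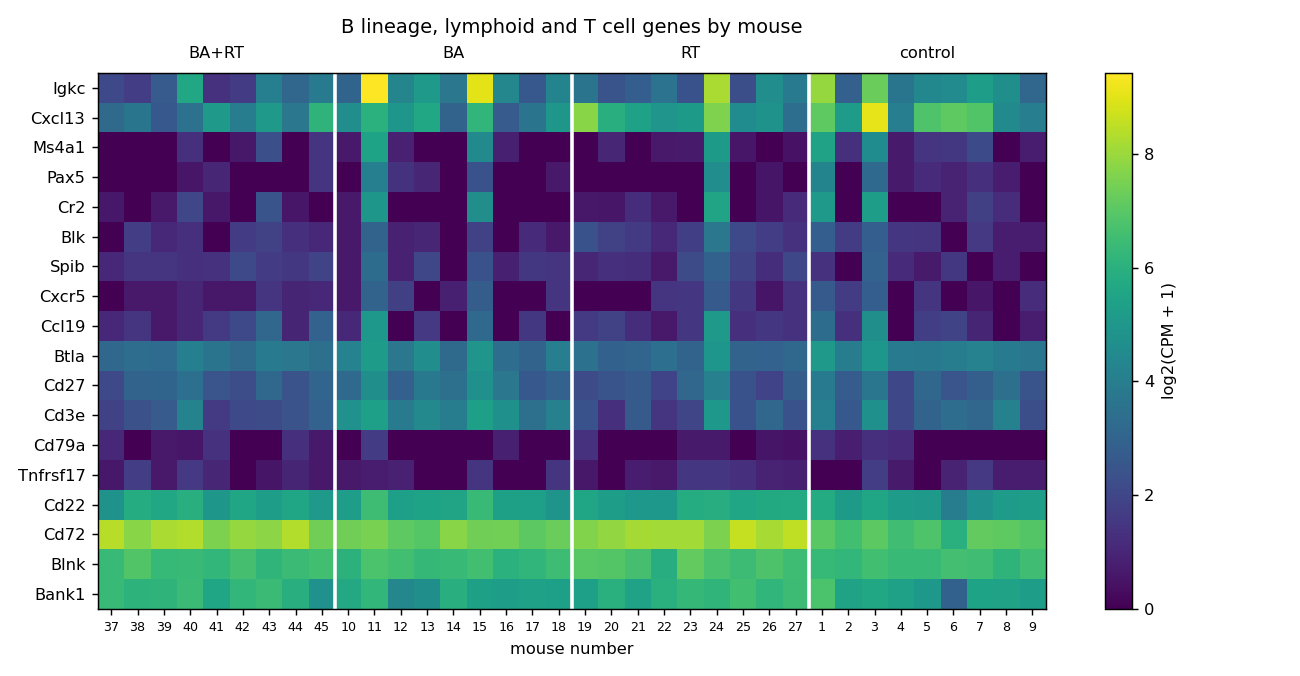
Heat map of log2(CPM + 1) for Igkc, Cxcl13 and B cell, lymphoid and T cell genes (rows) in 36 tumours (columns, by mouse number), with groups separated by white lines. Igkc, Ms4a1, Pax5 and Cr2 each have their 5 highest values in the same columns, mice 11 and 15 (BA), 24 (RT), 1 and 3 (control). Pax5 is faint in mouse 15, and Cd72 is high in every column.

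Few plasma cell genes could be set beside Igkc. Of 19 immunoglobulin and plasma cell genes listed, 5 were on the panel and 4 passed the filter, and none of these was another immunoglobulin gene. Prdm1, which encodes BLIMP-1 and is also used by T cells and other cells, had medians of 57.9 CPM in BA + RT, 116 CPM in BA, 84.8 CPM in RT and 150 CPM in control tumours. Its log2 fold changes against control were -1.49 (SE 0.13) in BA + RT, -0.47 (SE 0.13) in BA and -0.88 (SE 0.13) in RT tumours, and it passed the test in each. Irf4, a factor of activated lymphocytes and plasma cells, was lower in BA + RT (-0.62, SE 0.24) and RT (-0.87, SE 0.24) and higher in BA (0.90, SE 0.22) than in control tumours. The BA + RT value of Irf4 no longer passed without the 5 mice (-0.52, edgeR adjusted p = 0.0669), with reference gene factors (-0.45, adjusted p = 0.122), or without control mouse 3 or 7. Cd27 and Cd38 did not pass against control. Tnfrsf17, the BCMA receptor gene of plasma cells, had 0 to 4 counts in every tumour and did not mark those with high Igkc. Within groups, r with Igkc was 0.78 for Cd27, 0.46 for Irf4, 0.35 for Tnfrsf17, 0.25 for Prdm1 and 0.13 for Cd38. Without the 5 mice, these values were 0.39, 0.25, 0.21, 0.24 and 0.11 in the same order.

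Genes of lymphocyte help and lymphoid tissue were then read beside Cxcl13. Of 13 help and survival genes on the panels, 9 were tested. Against control, 1 was higher and 3 lower in BA + RT, 4 higher and 3 lower in BA, and 1 higher and 3 lower in RT tumours, where 47.6%, 27% and 41.6% of all genes were called. Cd40, the receptor through which B cells receive T cell help, fell by 1.26 (SE 0.10) in BA + RT, by 0.88 (SE 0.10) in BA and by 0.36 (SE 0.09) in RT tumours on the log2 scale. The RT value of Cd40 did not pass with reference gene factors, at -0.13 with an edgeR adjusted p of 0.329. Icos, the co-stimulatory receptor of follicular helper T cells, was higher in BA (1.49, SE 0.34) and lower in RT (-1.02, SE 0.36) than in control tumours, and its BA + RT value of -0.59 (SE 0.35) did not pass. The RT value of Icos was lost with reference gene factors (-0.79, edgeR adjusted p = 0.0768) and without control mouse 8.

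Of 12 lymphoid tissue chemokine and lymphotoxin genes on the panels, 10 were tested. Against control, 3 were higher and 4 lower in BA + RT, 2 higher and 1 lower in BA, and 3 higher and 1 lower in RT tumours, beside the same background shares of 47.6%, 27% and 41.6%. Ltb, which encodes the lymphotoxin chain that signals for follicle stroma, had medians of 37.3 CPM in BA + RT, 105 CPM in BA, 45.7 CPM in RT and 57.2 CPM in control tumours. It was lower in BA + RT (-0.82, SE 0.24) and higher in BA (0.66, SE 0.24) than in control tumours, and the RT value of -0.40 (SE 0.24) did not pass. Of the 36 fits that each left out a mouse, 9 lost the BA call of Ltb, with values of 0.57 without BA mouse 11 and 0.52 without BA mouse 15. Cxcl12, a chemokine of lymphoid and other stroma, was lower in BA than in control tumours (-1.17, SE 0.39, edgeR adjusted p = 0.0243), a call lost without the 5 mice (-1.10, adjusted p = 0.0912) and without control mouse 3 or 6. Its BA + RT value was 0.01 (SE 0.38), beside the -2.51 of Cxcl13. Ccl19, the ligand of CCR7 in T cell zones, was below the filter and had 46 and 10 counts in BA mice 11 and 15, 56 in RT mouse 24, 12 and 33 in control mice 1 and 3, and 17 or fewer in any other mouse. Among follicular dendritic cell markers, 3 of 6 were on the panels and Vcam1 alone was tested. It was lower in BA + RT (-0.49, SE 0.09) and RT (-0.52, SE 0.09) tumours, with a BA value of 0.05 (SE 0.09), against control.

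Igkc and Cxcl13 were next compared across the mice of each group, a measure that does not use differences between groups. Both genes were chosen with earlier results of these data known, so the p-values are given as a description. Pearson's r of log2 CPM was 0.13 in BA + RT (p = 0.735), 0.71 in BA (p = 0.0353), 0.47 in RT (p = 0.219) and 0.75 in control tumours (p = 0.0178), in two-sided exact permutation tests over 9 mice. Adjusted over the 4 groups by the Benjamini-Hochberg method, these were 0.735, 0.0705, 0.292 and 0.0705, and none passed 0.05. Spearman's rho was 0.05 in BA + RT, 0.67 in BA, 0.15 in RT and 0.77 in control tumours, with exact permutation p of 0.912, 0.0589, 0.708 and 0.0214 and adjusted p of 0.912, 0.118, 0.912 and 0.0856. Without the 2 mice farthest from the median of Igkc, r was 0.31 in BA + RT, 0.38 in BA, -0.23 in RT and 0.63 in control tumours. Those mice were 11 and 15 in BA and 24 and 25 in RT. Leaving them out narrows the range of Igkc, so a lower r cannot show whether a relation rested on them. Leaving out any single BA mouse gave r of 0.61 to 0.79 in BA tumours. Leaving out RT mouse 24 alone gave r = -0.10 in RT tumours. Whether the 4 correlations differ was not tested.

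**Figure D4:**
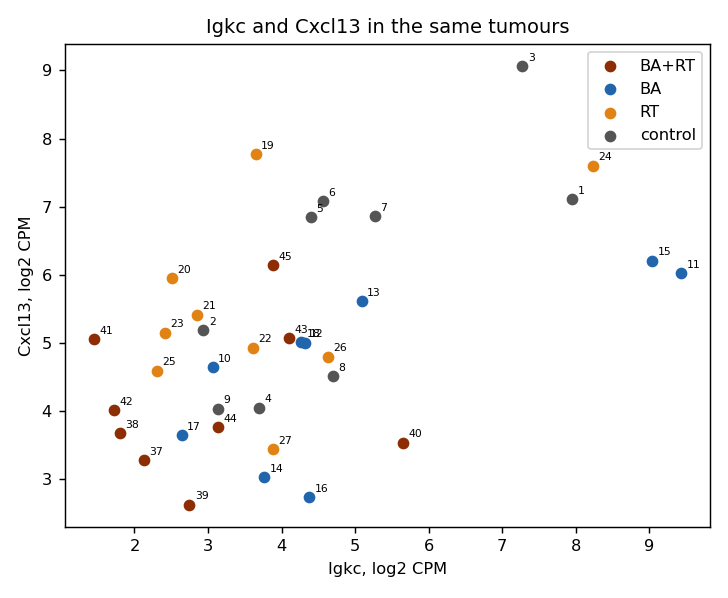
Cxcl13 against Igkc in log2 CPM, 1 point per tumour with its mouse number, coloured by group, 36 tumours. Mice 1, 3 and 24 are high for both genes, mice 11 and 15 of the BA group have the highest Igkc with Cxcl13 of 63.7 and 72.6 CPM, and mouse 19 of the RT group has high Cxcl13, 217 CPM, with 11.4 CPM of Igkc.

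Some tumours were high in one gene but not in the other. RT mouse 19 had the highest Cxcl13 of its group, 217 CPM, with Igkc of 11.4 CPM and 1 count over these 3 B cell genes. Control mice 5, 6 and 7 had Cxcl13 of 114, 134 and 115 CPM with Igkc of 19.9, 22.4 and 37.3 CPM. Their Igkc lay near or above the control median of 22.4 CPM, so they were not tumours without Igkc. They had 5, 4 and 15 counts over these 3 B cell genes. BA + RT mouse 40 had the highest Igkc of its group, 49.2 CPM, with Cxcl13 of 10.4 CPM. High Cxcl13 was thus found with few counts of these 3 genes, most clearly in RT mouse 19. Each of the 5 tumours with Igkc above 100 CPM had Cxcl13 of at least 63.7 CPM.

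The tested genes whose levels most resembled each member, after group means were subtracted, differed between Igkc and Cxcl13 except for Btla. Over 36 mice, the closest to Igkc were Btla (r = 0.86), an inhibitory receptor of B and T cells, Lax1 (0.80), a lymphocyte membrane adaptor, Cd3e (0.80), Cd27 (0.78), Cd247 (0.78), Cd3d (0.76), Cd3g (0.75) and Cd28 (0.73). Cd3d, Cd3e, Cd3g and Cd247 encode chains of the T cell receptor complex, and Cd28 its main co-stimulator. Without the 5 mice, r fell to 0.52 for Btla, 0.39 for Cd27 and 0.20 for Cd28, and was 0.67 for Cd3e. By Spearman's rho over 36 mice without that subtraction, the closest were Cd3e (0.76), Txk (0.75), Ctla4 (0.72), Btla (0.72) and Icos (0.68). These correlations are descriptions, since all genes of a tumour share its library and its depth.

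The below-filter markers matched Igkc as closely. Cr2 had r = 0.90 with Igkc, Ms4a1 0.87 and Pax5 0.86 over 36 mice, and without the 5 mice these were 0.58, 0.39 and 0.47. The median over the 12 B cell markers was 0.66, and 0.07 without the 5 mice, and that over 11 T cell markers was 0.71, and 0.49 without them, against -0.04 and -0.02 over all genes tested. The 5 mice were singled out by 3 of these B cell markers, which narrows the range of those genes without them. The B cell and T cell values without the 5 mice therefore cannot be set against each other. T cell transcripts also moved with Igkc. The T cell markers summed to 84.0 to 243 CPM in BA + RT, 142 to 451 CPM in BA, 70.3 to 270 CPM in RT and 70.8 to 273 CPM in control tumours. Against control, 2 of 10 tested T cell markers were lower in BA + RT (Cd4 and Cd5), 4 higher in BA (Cd28, Cd3g, Cd5 and Lck) and 1 lower in RT (Cd5), beside 47.6%, 27% and 41.6% of all genes. The calls of Cd4 and Cd5 in BA + RT were lost without control mouse 3 (-1.06 and -0.67), that of Cd5 in RT was lost in 11 of 36 leave-one-out fits and those of Lck and Cd28 in BA in 21 and 5 of 36. Cd3e, which passed in none of the 3, was at -0.90 (SE 0.49), 1.14 (SE 0.46) and -0.58 (SE 0.48) in BA + RT, BA and RT tumours. Their part in the Igkc values was not tested.

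Among tested genes, those nearest to Cxcl13 were others than those nearest to Igkc, apart from Btla. They were Cxcl12 (r = 0.79), Tnfsf11 (0.74), the gene of RANKL, Fabp4 (0.71), a fatty acid carrier of adipocytes and endothelium, Hpgd (0.69), which degrades prostaglandins, Steap4 (0.68), a metalloreductase, Mme (0.68), a membrane peptidase, Apod (0.67), a lipocalin, and Btla (0.67). Without the 5 mice, r was 0.85 for Cxcl12, 0.85 for Apod and 0.81 for Steap4, each higher than over all mice, and 0.48 for Btla. Genes below the filter also followed Cxcl13, with r = 0.74 for Ccl19, 0.65 for Pax5 and 0.62 for Ms4a1. Without the 5 mice these were 0.63, 0.59 and 0.38. The median r of the 12 B cell markers with Cxcl13 was 0.49, and 0.14 without the 5 mice. Cd72 and Bank1 went the other way, at -0.43 and -0.24 over all mice. By Spearman's rho, the closest were Hpgd (0.71), Mme (0.70), Tnfsf11 (0.69), Fabp4 (0.67) and Cxcl12 (0.66). Against control, Tnfsf11 was lower in BA tumours (-1.15, SE 0.34, edgeR adjusted p = 0.0115), with values of -0.28 (SE 0.33) in BA + RT and 0.41 (SE 0.32) in RT tumours that did not pass, and the BA call was lost without the 5 mice (-1.13, adjusted p = 0.0523).

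Muscle and fibroblast transcripts moved with Cxcl13. The 3 skeletal muscle markers on the panels had a median r of 0.44 with Cxcl13, and 0.67 without the 5 mice, and the 6 fibroblast markers 0.34, and 0.47 without them. With Igkc, the medians of these lists were -0.11 and -0.03. Muscle markers summed to 837 to 8361 CPM in BA + RT, 811 to 4634 CPM in BA, 660 to 3159 CPM in RT and 592 to 6427 CPM in control tumours. 2 of 3, Mef2c and Myod1, were higher in BA + RT than in control tumours (0.87, SE 0.33, and 1.58, SE 0.51), a comparison with 47.6% of all genes called, where the level of Cxcl13 was lower. Without BA + RT mouse 45 these values were 0.47 and 1.08 and neither passed, and neither passed without the 5 mice (0.78 and 1.37). None of the 3 passed in BA or RT tumours. Fibroblast markers were lower for 5 of 6 in BA + RT, 5 of 6 in BA and 2 of 6 in RT tumours, beside 47.6%, 27% and 41.6% of all genes called in either direction, with Pdgfrb at -0.94 (SE 0.11), -0.48 (SE 0.11) and -0.63 (SE 0.11). They summed to 39663 to 71460 CPM in BA + RT, 37882 to 56705 CPM in BA, 36179 to 85811 CPM in RT and 55316 to 102026 CPM in control tumours. Their part in the Cxcl13 values was not tested.

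**Figure D5:**
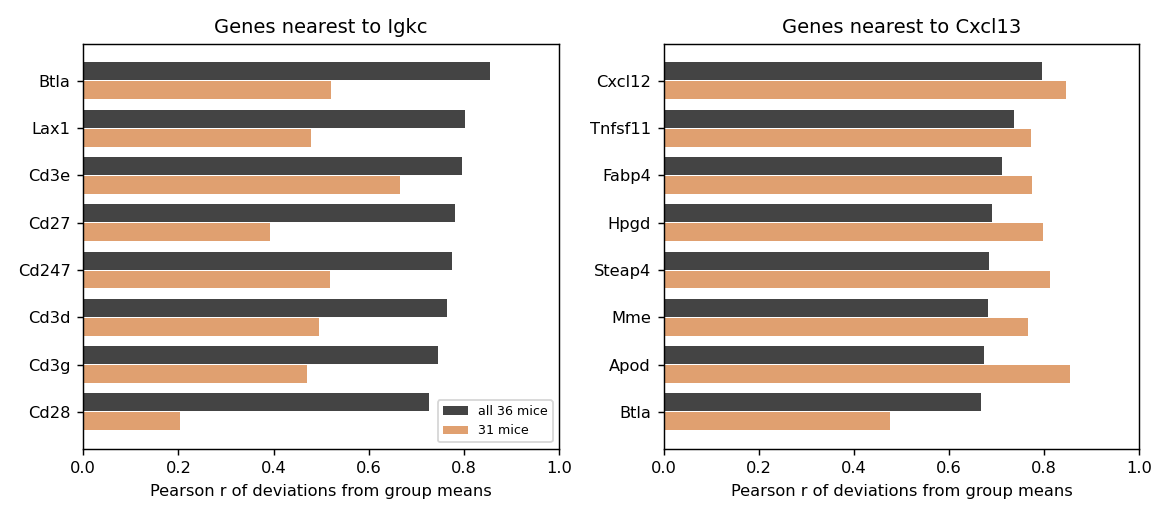
Pearson's r of deviations from group means for the 8 tested genes nearest to Igkc (left) and to Cxcl13 (right), over all 36 mice (dark bars) and over the 31 mice left without those with high B cell marker sums (light bars). For Igkc the bars shorten without these mice, as for Cd28 (0.73 and 0.20), whereas for Cxcl13 those of Cxcl12 (0.79 and 0.85) and Apod (0.67 and 0.85) lengthen.

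Antigen presentation genes and myeloid markers complete the lists set beside the B lineage signal. Of 5 tested MHC class II genes, 4 were lower and 1 higher in both BA + RT and RT than in control tumours, and 1, H2-DMa, was higher in BA tumours (0.44, SE 0.15), a call lost without the 5 mice (0.33, edgeR adjusted p = 0.215). H2-Ab1, which B cells share with other antigen-presenting cells, was at -2.49 (SE 0.30) in BA + RT, 0.67 (SE 0.29, adjusted p = 0.0795 by edgeR) in BA and -2.81 (SE 0.31) in RT tumours. The class II genes had a median r of 0.44 with Igkc and -0.11 with Cxcl13, and without the 5 mice these were 0.38 and -0.34. Of 8 tested macrophage and monocyte markers, 3 were higher and 3 lower in BA + RT, 4 higher and 1 lower in BA, and 4 higher and 2 lower in RT tumours. For both lists, the shares of all genes called were 47.6% in BA + RT, 27% in BA and 41.6% in RT. The median r of the macrophage and monocyte markers was -0.08 with Igkc and 0.03 with Cxcl13, and without the 5 mice 0.01 and 0.03.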

How the data were processed

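RNA of 36 tumours was sequenced on 2 amplicon panels, giving 72 libraries of 992 and 286 amplicons, with 54 genes on both. The authors deposited whole-number counts per amplicon and regularised log2 values, and the submitters' processing notes name DESeq2. Whether a count is a read or a molecular barcode was not stated by any label or header. The header names GRCh38, and 1277 of 1278 amplicons lay inside their named gene on GRCm38. The 5 genomic DNA control rows per panel held 7 counts on panel 1 over all libraries and were removed.

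Igkc and Cxcl13, and the gene lists, were chosen with earlier results of these data known. Counts were fitted in edgeR 4.0.16 (R 4.3.3) with TMM factors, low-count filtering by group, and its quasi-likelihood F-test with robust estimation, each panel alone with all 36 libraries, and p-values were adjusted by Benjamini-Hochberg over 1038 genes (threshold 0.05). Log2 CPM used a prior count of 2. SE is the absolute log2 fold change over the square root of F. Correlations used all 362880 pairings of 9 mice. Alternatives were other scaling factors, no filter, DESeq2 1.42.0, limma 3.58.1 on the deposited log2 values, the same values for correlations, each mouse left out, and, added after the values were seen, 5 mice left out. Genes named beside the members were the list genes called in a comparison, up to 3 uncalled ones per list of highest count, below-filter list genes whose counts are given, and the 8 and 5 nearest genes by r and rho. 1 item is not reported here. The model was tested on simulated counts. The mice are separate animals, and no batch is labelled.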

Additional observations from a re-analysis of the deposited data

Results flagged for a closer look

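Within the RT group, the Igkc level of mouse 24 (299 CPM) stood far from the others. Its gap to the next mouse was 0.608 of the group's whole range in log2 CPM, above Dixon's critical value for 9 samples. No other extreme of Igkc or Cxcl13 in any group was above it. This ratio uses the gap beside a single extreme, so 2 high mice lying together are not flagged. BA mice 11 and 15 had 690 and 525 CPM of Igkc, against 32.9 CPM in the next BA mouse. Control mice 1 and 3 had 246 and 154 CPM, against 37.3 CPM in the next control mouse.

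3 of 10 tested lymphoid tissue genes had an effect of BA that differed with radiation from that without it, by edgeR's interaction test, which called 8.29% of all genes. The difference was -1.20 log2 units for Ccr7 (SE 0.30, adjusted p = 0.00845), the homing receptor for CCL19, and it passed with each mouse left out. It was -0.50 for Cxcr4 (SE 0.14, adjusted p = 0.0200), the receptor for CXCL12, which also passed with each mouse left out. It was -1.08 for Ltb (SE 0.34, adjusted p = 0.0427), which missed the threshold with reference gene factors, with limma on the deposited log2 values, in 21 of 36 fits that left out a mouse, and without the 5 mice that stood apart in B cell genes (-0.92, adjusted p = 0.0619).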

How the results depend on the processing

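Igkc depended most on which mice were kept. The 5 with high B cell marker sums were also the highest in Igkc, and none was in BA + RT. Without the 5 mice with high B cell marker sums, an alternative added after the data were seen, its log2 fold change was -0.23 in BA against control, 0.22 in BA + RT against RT and 0.45 for the interaction, each of opposite sign, and -0.48 in BA + RT against BA. That alternative gave 51 interaction calls in place of 86 and a correlation of -0.10 in RT tumours (adjusted p = 0.820). DESeq2 gave 0.16 for Igkc in BA + RT against RT, -1.70 in RT against control and -0.96 for its interaction. Limma on the deposited log2 values, which are shrunken, gave -1.08 for Cxcl13 in BA + RT against control, and -1.23 in BA + RT against BA and -0.67 for the interaction of Igkc. On those values the correlations were 0.76 in BA (adjusted p = 0.0341) and 0.74 in control tumours (adjusted p = 0.0349), both past the threshold. The causes of these shifts were not tested.

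With each mouse left out, Igkc ranged from -3.14 to -1.64 (BA + RT against control), 0.44 to 2.06 (BA), -2.59 to 0.23 (RT), -2.64 to 0.22 (BA + RT against RT), -4.47 to -2.80 (BA + RT against BA) and -3.97 to -1.11 (interaction). Cxcl13 ranged from -2.97 to -1.75, -2.17 to -1.17, -1.26 to -0.07, -2.12 to -1.25, -1.02 to -0.33 and -0.51 to 0.68 in the same order. Correlations ranged from -0.0617 to 0.417 in BA + RT, 0.61 to 0.79 in BA, -0.10 to 0.61 in RT and 0.64 to 0.83 in control tumours. Calls ranged from 458 to 532, 242 to 349, 399 to 483, 76 to 153, 514 to 586 and 71 to 106 genes in the same order of comparisons. No paired analysis was possible because mouse numbers are not shared between groups. Counts as low as 3 for Igkc limit single tumours.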
